A study of Mus musculus with 18 samples.

Results

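This account covers the loss of p110gamma (p110g-/-) in mouse macrophages kept in interleukin 4 (IL-4), measured by RNA sequencing. It compares the 3 libraries labelled p110g-/- with the 3 labelled wild type (WT) in IL-4, which are 6 of the 18 libraries of the study. The libraries were chosen by their labels, and 15627 of the 16474 genes in the table, those with a value of at least 10 in 3 or more of the 18 libraries, were tested. All groups are macrophages grown from marrow of C57BL/6 mice 8 weeks old, for 6 days in 50 ng/ml M-CSF (macrophage colony-stimulating factor). The IL-4 groups then spent 48 h in 20 ng/ml M-CSF and 20 ng/ml IL-4. The other groups of both genotypes, used below for comparison only, spent 24 h in 20 ng/ml M-CSF, either with no other agent or together with 100 ng/ml lipopolysaccharide (LPS) and the cytokine interferon gamma (IFNg, whose dose is not printed here). All groups therefore held M-CSF, and time differs between IL-4 and the other stimuli as well as the agent. The labels describe the p110g-/- genotype in no further detail and do not say whether libraries came from separate animals, cultures or pools, so p-values measure the spread between libraries.

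Phosphoinositide 3-kinase gamma (PI3Kgamma) is a lipid kinase of leukocytes. Its catalytic subunit p110gamma, the product of Pik3cg, is switched on by G protein-coupled receptors such as those for chemokines, and makes the lipid signal PIP3 that recruits Akt. IL-4 acts through a receptor that activates JAK kinases and the transcription factor STAT6. STAT6 drives alternative activation, a macrophage state marked by genes such as Arg1, Retnla, Chi3l3 and Mrc1. That state is tied to tissue repair and defence against worms. In macrophages PI3Kgamma is best known for its part in movement towards chemoattractants.

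The values are normalised read counts, written here as signal. They compare a gene between libraries and are not divided by gene length. Each of the 6 IL-4 libraries held 40.6 to 68.1 M reads (M is 1e6). Within both IL-4 groups the library numbered 1 stood apart: over all tested genes the SD of the log2 difference was 0.42 to 0.55 between number 1 and another library of its group, and 0.34 and 0.35 between numbers 2 and 3. Counts of genes are therefore also given for fits that leave number 1 out. A difference was tested with limma on log2(signal + 1), which understates the change of low genes, in a model of all 18 libraries, and called where the Benjamini-Hochberg adjusted p was below 0.05. Log2 differences are p110g-/- minus WT, and values of libraries are given in the order of their numbers.

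Pik3cg itself was lower in p110g-/- cells. Its signal was 3068, 2953 and 3280.5 in WT and 956, 1083 and 965 in p110g-/- libraries, so every p110g-/- library lay well below every WT library, with reads left in all 3. The log2 difference was -1.63 (SE 0.23, adjusted p = 0.00063). Among 37 tested genes of PI3K, phosphoinositide phosphatases, Akt and mTOR, 3 fell and none rose, and the median log2 difference was -0.03, against a median of 0.00 over all tested genes, of which 3.33% passed the test. Besides Pik3cg these were Pik3cb, which encodes the p110beta subunit (-0.55 (SE 0.10, adjusted p = 0.0048)), and Foxo3, a transcription factor that Akt holds out of the nucleus (-0.61 (SE 0.13, adjusted p = 0.017)). Signal of Pik3cb was 3453, 3927 and 4248 in WT and 3009.6, 2489 and 2449 in p110g-/- libraries, without overlap. The call of Foxo3 ended without WT number 1 or 2 or p110g-/- number 2 or 3 (adjusted p = 0.059 to 0.064, against 0.00088 to 0.13 over all alternatives). Of the 20 tested genes nearest to Pik3cg on chromosome 12, 10 on each side, only Hdac9, a histone deacetylase, passed the test, at -2.09 (adjusted p = 0.0084). Its call ended without WT number 2 or 3 or p110g-/- number 3 (adjusted p = 0.053 to 0.059, against 1.1e-05 to 0.059 over all alternatives).

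In all, 520 genes passed the test in IL-4, 3.33% of those tested: 209 were higher in p110g-/- cells (1.34%) and 311 lower (1.99%). Most differences were modest. The median absolute log2 difference of these genes was 0.79, and 201 of them exceeded 1, with 75 higher and 126 lower. The count turned on single libraries: it was 276 without WT number 2, 239 without WT number 3, 252 without p110g-/- number 2 and 247 without p110g-/- number 3, and 205 genes (76 higher, 129 lower) passed whichever of the 6 libraries was left out. With only numbers 2 and 3 of the IL-4 groups, 648 genes passed, 418 of them among the 520, and with only numbers 2 and 3 in every group, 2285 passed (14.6%), 504 of them among the 520. Every gene named below as past the test passed in that last fit except Cpa3. That fit was chosen after the data were seen and reuses libraries of the main fit. Passing it is therefore not independent evidence for a gene.

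**Figure D1:**
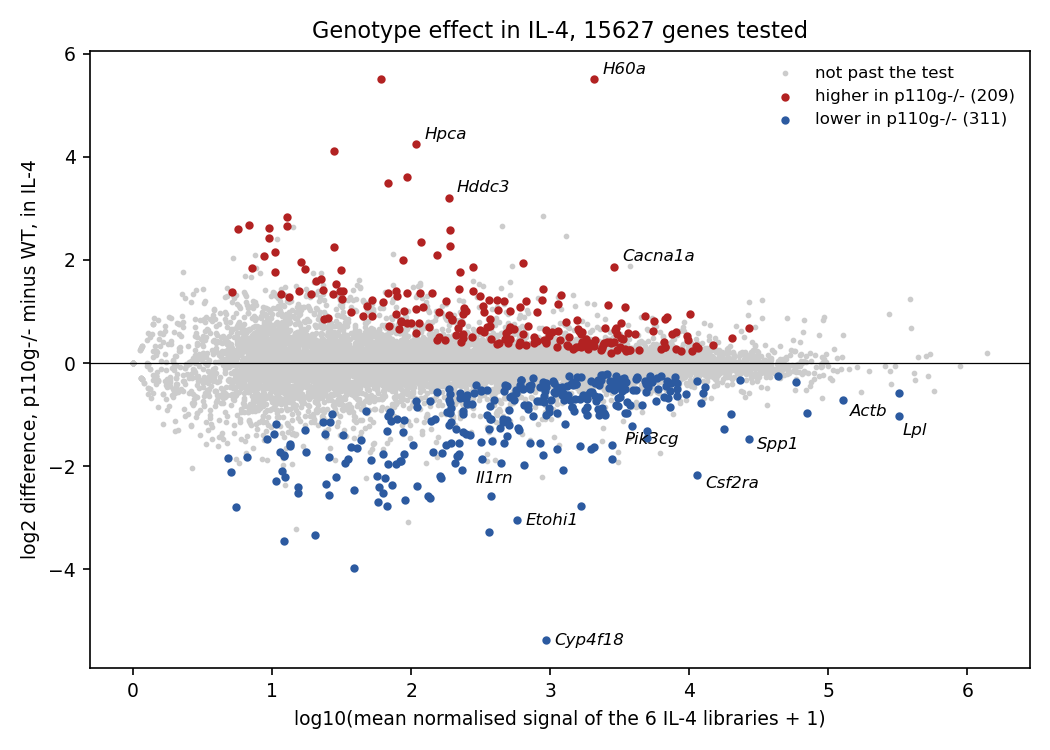
Log2 difference between p110g-/- and WT in IL-4 (vertical axis) against the mean signal of the 6 IL-4 libraries (horizontal axis, log10), 1 point for each of the 15627 tested genes. Red points are the 209 genes higher and blue points the 311 genes lower in p110g-/- cells past the test, and H60a and Cyp4f18 lie at the extremes at 5.52 and -5.37.

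Between M-CSF and IL-4, which also differ in time, 6868 genes (43.9%) passed in WT cells. Most alternative activation genes stood somewhat above WT in p110g-/- cells in IL-4, and 1 passed the test. Of 30 tested markers, 1 rose and none fell, 22 lay above 0, and the median log2 difference was 0.41. Over all tested genes, 1.34% passed as higher. The p110g-/- libraries lay wholly above WT for 10 of the 30, and for 11.2% of all tested genes. The gene that passed was Pdcd1lg2, which encodes the inhibitory ligand PD-L2 and is a common IL-4 marker. Its signal was 3115, 2094 and 1594 in WT and 4432, 4626 and 4839.6 in p110g-/- libraries, a log2 difference of 1.08 (SE 0.27, adjusted p = 0.038). The groups did not overlap, but the call ended without WT number 2 or 3 or p110g-/- number 1, 2 or 3 (adjusted p = 0.056 to 0.21, against 0.00013 to 0.21 over all alternatives). In WT cells in M-CSF the mean signal of Pdcd1lg2 was 29.4 ± 5.93 (SD, n = 3).

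Retnla, which encodes the secreted protein Fizz1, reached 160556, 284182 and 214466 in WT and 269012, 682610 and 697974 in p110g-/- libraries in IL-4, a log2 difference of 1.24 (SE 1.12, adjusted p = 0.7). The p110g-/- libraries numbered 2 and 3 were the highest of all, and p110g-/- number 1 fell within the WT range. For Chi3l3, the chitinase-like protein Ym1, the values were 240932, 158794 and 152105 and 256244, 343200 and 477174, without overlap but with a difference that did not pass, 0.95 (SE 0.59, adjusted p = 0.52). The eosinophil-attracting chemokine Ccl24 showed 607, 2800.2 and 1346 and 1777, 8399 and 7644, overlapping through number 1, at 1.88 (SE 0.60, adjusted p = 0.12). Mrc1, the mannose receptor, was at 53084, 55252 and 51922 in WT and 57253, 76734 and 80945 in p110g-/- libraries, a difference of 0.41 (SE 0.21, adjusted p = 0.41). Arg1, the arginase that drains arginine, pointed the other way without passing: 2949, 7251 and 6736 in WT against 3157, 4593 and 4835 in p110g-/- libraries, -0.35 (SE 0.45, adjusted p = 0.81). For Arg1 the lowest library of either group was number 1, so the spread within a group exceeded the gap between the groups.

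The IL-4 receptor pathway leaned slightly higher, and its calls changed with the libraries used. Limma called 0 of 16 tested members, with 3 at an unadjusted p below 0.05, edgeR called 0 and DESeq2 1, and the median log2 difference was 0.16. Stat6, the transcription factor of the pathway, was at 11316, 11731 and 11765 in WT and 11818, 11795 and 12080.4 in p110g-/- libraries, a log2 difference of 0.04 (SE 0.05, adjusted p = 0.84). The receptor chain Il4ra was at 0.21 (adjusted p = 0.66), the kinase Jak2 at 0.47 (adjusted p = 0.1) and the feedback inhibitor Socs1 at 0.37 (adjusted p = 0.71). Cish, another STAT-induced inhibitor, showed 2239, 1647 and 1429 against 3085, 2866 and 3598, groups that did not overlap, at 0.86 (SE 0.27, adjusted p = 0.11). With only numbers 2 and 3 in every group, 3 members passed as higher, Jak2 (0.61 (adjusted p = 0.0002)) and Cish (1.07 (adjusted p = 0.0017)) among them. In that fit 14.6% of all tested genes passed in either direction. Cish also passed by DESeq2 (0.02) and in the 6 IL-4 libraries alone (0.044), and Jak2 without WT number 1 (0.044), each an adjusted p.

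Class II antigen presentation genes leaned higher. Of 18 tested members of the list, 15 lay above 0, the median was 0.40, and 9 were wholly above WT, as were 11.2% of all tested genes. Yet none passed as higher and 1 passed as lower, beside 1.34% and 1.99% of all tested genes. H2-Ab1, the beta chain of the class II molecule I-A, had a signal of 63304, 42675 and 40387 in WT and 90962, 85682 and 80651 in p110g-/- libraries, 0.84 (SE 0.29, adjusted p = 0.14). H2-Aa, its partner chain, was at 0.90 (adjusted p = 0.14), and Ciita, the master activator of these genes, at 0.71 (adjusted p = 0.13). The member that fell was Rfxank, a subunit of the RFX complex that binds class II promoters, at 868, 737 and 816 in WT and 569.6, 580.4 and 612 in p110g-/- libraries (-0.46 (SE 0.07, adjusted p = 0.0019)), a small difference without overlap. With only numbers 2 and 3 in every group, 9 members of this list passed as higher and 2 as lower, and 6 alternative activation markers passed as higher and 1 as lower. The share over all tested genes in that fit was 14.6%. With all numbers of the other groups kept, these fits of IL-4 numbers 2 and 3 gave 0 and 1 for the class II list and 4 and 0 for the alternative activation markers.

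**Figure D2:**
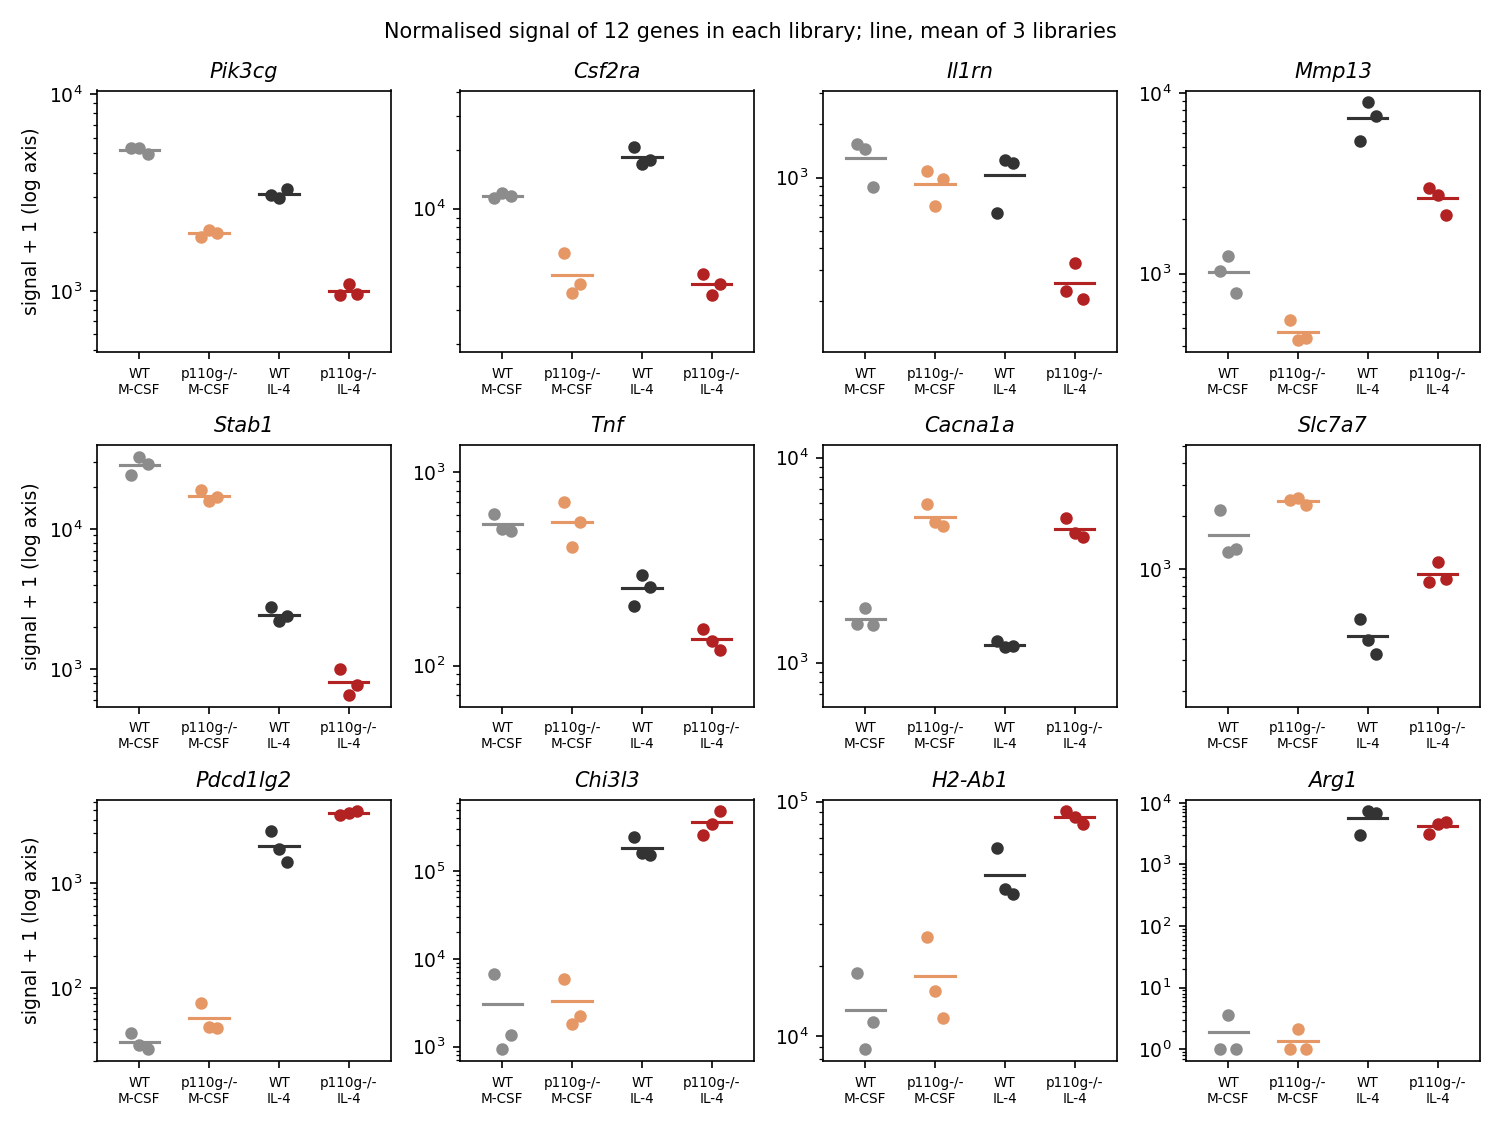
Signal + 1 (log axis) of 12 genes in each WT and p110g-/- library in M-CSF (24 h) and in IL-4 (48 h); points are libraries in the order of their numbers and lines are means of 3. Pik3cg, Csf2ra, Il1rn, Mmp13, Stab1 and Tnf are lower and Cacna1a, Slc7a7 and Pdcd1lg2 higher in p110g-/- cells in IL-4 past the test, while Chi3l3, H2-Ab1 and Arg1 are not.

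Inflammatory cytokines and chemokines leaned lower at what were mostly low levels in IL-4. Of 24 tested, 1 fell and none rose, 22 lay below 0, the median was -0.54, and 9 were wholly below WT, as were 11.4% of all tested genes. The test called 1.99% of all tested genes lower. Tnf, the cytokine that fell, had 202, 294 and 255 in WT and 154, 134 and 119.6 in p110g-/- libraries, a log2 difference of -0.87 (SE 0.18, adjusted p = 0.013). Its groups did not overlap, and the call ended without WT number 2 or 3 or p110g-/- number 2 or 3 (adjusted p = 0.056 to 0.083, against 0.0002 to 0.083 over all alternatives). Ccl2, which draws monocytes, showed the lowest value of the list, -2.20, with 428, 2287 and 1683 in WT and 241, 349.8 and 198 in p110g-/- libraries. The WT libraries of Ccl2 spread widely, with number 1 the lowest, and the adjusted p was 0.14. Ccl3 (-1.44 (adjusted p = 0.12)) and Il1b (-1.75 (adjusted p = 0.12)) were also wholly below WT without passing. Nos2, the inducible nitric oxide synthase, overlapped between the groups at 0.66 (adjusted p = 0.66).

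Type I interferon-stimulated genes also leaned lower, with no call by limma over all libraries. Of 30 tested, 28 lay below 0 and 15 were wholly below WT, as were 11.4% of all tested genes. The list median was -0.33 in IL-4 and -0.66 in M-CSF. Limma called 0, with 5 at an unadjusted p below 0.05, edgeR 0 and DESeq2 1. Rsad2, an antiviral enzyme, came nearest, with 746, 472 and 416 in WT and 222, 119 and 137 in p110g-/- libraries (-1.77 (SE 0.48, adjusted p = 0.057)). Rsad2 passed without p110g-/- number 1 (adjusted p = 0.042), with only numbers 2 and 3 in every group (-1.78 (adjusted p = 0.013)), by DESeq2 (adjusted p = 0.029) and in the 6 IL-4 libraries alone (adjusted p = 0.024), where 4 members of the list passed as lower. Of 21 tested NF-kB genes, 1 fell, beside 1.99% of all tested genes. It was Icam1, an adhesion molecule, at -0.69 (adjusted p = 0.026). The call of Icam1 ended without WT number 2 or 3 or p110g-/- number 1, 2 or 3 (adjusted p = 0.052 to 0.15, against 0.00012 to 0.15 over all alternatives).

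Some immune suppressive and tissue repair factors fell. Of 26 tested, 5 passed as lower, none as higher, and the median was -0.25. Over all tested genes, 1.99% passed as lower and 1.34% as higher. Il1rn, which encodes the antagonist that blocks the interleukin 1 receptor, had 634, 1258 and 1209.9 in WT and 227, 329.5 and 205 in p110g-/- libraries, -1.99 (SE 0.27, adjusted p = 0.00044). Each p110g-/- library was below the lowest WT library, number 1, and the call held in every alternative tried. Mmp13, a collagenase, fell from 5417, 8869 and 7488 to 2985, 2719 and 2111, -1.46 (SE 0.26, adjusted p = 0.0037), also in every alternative and without overlap.

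Spp1, the secreted matrix protein osteopontin, had 27279.9, 44732 and 46690 in WT and 12787, 13924 and 15011 in p110g-/- libraries, at -1.47 (SE 0.36, adjusted p = 0.036). Its groups were well apart, yet the call ended without WT number 2 or 3 or p110g-/- number 1, 2 or 3 (adjusted p = 0.072 to 0.17, against 0.0012 to 0.17 over all alternatives). The growth factor genes Pdgfa and Pdgfb, whose products act on stromal cells, were at -1.10 (adjusted p = 0.034) and -0.90 (adjusted p = 0.042). The call of Pdgfa ended without WT number 1, 2 or 3 or p110g-/- number 2 or 3 (adjusted p = 0.077 to 0.19, against 0.0014 to 0.19 over all alternatives), and that of Pdgfb without WT number 2 or 3 or p110g-/- number 1, 2 or 3 (adjusted p = 0.056 to 0.21, against 4.2e-05 to 0.21 over all alternatives). Tgfb1 was close to WT at 11512, 12614 and 11905 against 9242, 10642 and 11714 (-0.20 (SE 0.13, adjusted p = 0.54)), and Il10 was low in both groups, 21.4, 15.8 and 16.4 against 8.6, 2.9 and 4.6 (-1.65 (SE 0.66, adjusted p = 0.23)).

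Several receptors of the macrophage surface fell, and some receptors rose. Among 14 tested C-type lectin receptor genes 2 rose, with Cd209a (values below) 1 of them, and 1 fell. The median of that list was -0.05. Over all tested genes, 1.34% passed as higher and 1.99% as lower. Csf2ra, the alpha chain of the GM-CSF receptor and singled out after its values were seen, fell in every alternative. Its signal was 20667, 17038 and 17798 in WT and 4619, 3587 and 4086 in p110g-/- libraries, -2.18 (SE 0.15, adjusted p = 2.6e-07), and the highest p110g-/- library lay far below the lowest WT library. Stab1, a scavenger receptor of tissue macrophages, had 2751, 2209.7 and 2376 and 1003, 656 and 773, -1.61 (SE 0.14, adjusted p = 3.1e-06). It was already low in WT in IL-4, since its mean signal in WT in M-CSF was 28595 ± 4215 (SD, n = 3). C5ar1, the receptor for complement C5a, had 3492, 2939.6 and 3162 and 1793, 1146 and 2079, -0.97 (SE 0.17, adjusted p = 0.0037). The fit over the 6 IL-4 libraries alone gave C5ar1 an adjusted p of 0.055.

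Stab1 and C5ar1 were the 2 of 21 tested complement and scavenger receptor genes that passed, both lower, with a list median of -0.28. The share of all tested genes that passed as lower was 1.99%, to be read beside each list count here. Among 20 chemotactic receptors 2 fell, C5ar1 and the chemokine receptor Ccr1 (-0.82 (adjusted p = 0.041)), and the median was -0.25. The call of Ccr1 ended without WT number 2 or 3 or p110g-/- number 1, 2 or 3 (adjusted p = 0.064 to 0.17, against 0.00093 to 0.17 over all alternatives). Of 21 eicosanoid genes, Cysltr2, a receptor for cysteinyl leukotrienes, fell from 104, 116 and 96 to 23, 13.6 and 17 (-2.52 (SE 0.29, adjusted p = 7.2e-05)), and so did the prostaglandin receptor Ptger1 (-0.62 (adjusted p = 0.0068)), whose call ended without p110g-/- number 2 (adjusted p = 0.051, against 0.00011 to 0.051 over all alternatives). Among 17 Fc receptors and leukocyte integrins, the integrin chains Itga6 (-0.57 (adjusted p = 0.011)) and Itgav (-0.37 (adjusted p = 0.04)) fell. The call of Itga6 ended without WT number 2 or 3 or p110g-/- number 2 or 3 (adjusted p = 0.051 to 0.062, against 0.00058 to 0.062 over all alternatives), and that of Itgav without WT number 2 or 3 or p110g-/- number 2 or 3 (adjusted p = 0.13 to 0.22, against 0.0019 to 0.22 over all alternatives).

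Ligands of NKG2D, the receptor by which natural killer cells sense stressed cells, moved in both directions, 2 higher and 2 lower of 9 tested. Over all tested genes, 1.34% were called higher and 1.99% lower. H60a had the largest rise of the genes with a mean of at least 50 and a WT group above the value of 3 reads, from 78, 83.8 and 102 in WT to 4317, 4091 and 3743 in p110g-/- libraries, 5.52 (SE 0.10, adjusted p = 6.3e-15). Raet1d fell from 57.6, 68 and 66.8 to 10, 12.6 and 10 (-2.46 (SE 0.31, adjusted p = 0.00017)), and Raet1e from 55.7, 50.6 and 50.4 to 12.9, 14.5 and 11.6 (-1.93 (SE 0.42, adjusted p = 0.016)). The call of Raet1e ended without WT number 2 or 3 or p110g-/- number 2 or 3 (adjusted p = 0.052 to 0.08, against 0.00056 to 0.08 over all alternatives). H60c passed as higher at very low levels, 5.6, 0 and 1.2 in WT, at or below the value of 3 reads on average, and 17.2, 8.7 and 17.8 in p110g-/- libraries, so it is given no fold; its call ended without WT number 2 or 3 or p110g-/- number 3 (adjusted p = 0.081 to 0.098, against 0.0015 to 0.1 over all alternatives). H60 and Raet1 genes are close copies, and how reads shared between copies were counted is not given in the sources used here.

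Lipid, redox and iron genes held few calls over all libraries and more without those numbered 1. The share of all tested genes called over all libraries was 3.33%. Lpl, the lipoprotein lipase and one of the most abundant transcripts here, had 421159, 428149 and 432610 in WT and 275469, 195831 and 167259 in p110g-/- libraries, -1.04 (SE 0.25, adjusted p = 0.036). The WT libraries agreed closely and all p110g-/- libraries were lower, but the call ended without WT number 1, 2 or 3 or p110g-/- number 2 or 3 (adjusted p = 0.066 to 0.19, against 4.8e-06 to 0.19 over all alternatives). Nr1h3, which encodes the sterol sensor LXRalpha, rose at 0.68 (adjusted p = 0.0073), and its call ended without WT number 2 or 3 (adjusted p = 0.05 to 0.054, against 0.0002 to 0.062 over all alternatives). These were the 1 lower and 1 higher of 24 tested LXR and lipid handling genes, whose median was 0.06. In sterol and fatty acid synthesis, 29 of 31 genes lay below 0 with a median of -0.21, and the 1 that passed was higher, the cholesterol carrier Stard4 (0.60 (adjusted p = 0.039)); its call ended without WT number 2 or 3 or p110g-/- number 1, 2 or 3 (adjusted p = 0.087 to 0.16, against 0.00071 to 0.16 over all alternatives). Prdx1, a peroxide-reducing enzyme, fell at -0.97 (adjusted p = 0.0068), the 1 of 22 oxidative stress genes to pass, and its call ended without p110g-/- number 3 (adjusted p = 0.052, against 4.8e-06 to 0.052 over all alternatives). Fth1, the ferritin heavy chain, was the 1 of 14 iron genes to pass, at -0.58 (adjusted p = 0.037), and its call ended without WT number 1, 2 or 3 or p110g-/- number 2 or 3 (adjusted p = 0.057 to 0.21, against 0.00029 to 0.21 over all alternatives). With only numbers 2 and 3 in every group, 12 sterol and fatty acid synthesis genes passed as lower and 2 as higher, 8 LXR and lipid handling genes as higher and 2 as lower, 8 oxidative stress genes as lower and 0 as higher, and 2 iron genes each way. Over all tested genes the share past that fit was 14.6%.

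Replication, glycolysis and lysosome genes held no call by limma over all libraries. Limma called 0 of 30 replication and mitosis genes (median 0.12), of which 0 had an unadjusted p below 0.05, and edgeR and DESeq2 called 0. For 26 glycolysis genes (median -0.20) limma, edgeR and DESeq2 called 0, with 5 at an unadjusted p below 0.05. For 32 lysosome genes (median 0.02) limma and edgeR called 0 and DESeq2 2, with 3 at an unadjusted p below 0.05. With only numbers 2 and 3 in every group, 16 glycolysis genes passed as lower and 0 as higher, 6 lysosome genes as higher and 0 as lower, and 1 replication gene as lower. Of all tested genes, 14.6% passed in that fit in either direction, and 3.33% passed over all libraries. Of 18 G1 genes, the growth suppressor Rb1 rose, from 2466, 2495 and 2436 to 3121, 3712 and 3064 (0.41 (SE 0.07, adjusted p = 0.0046)), while Cdkn1a, the CDK inhibitor p21, at -0.63 (adjusted p = 0.038), and Cdk6, at -0.52 (adjusted p = 0.045), fell. The call of Cdkn1a ended without WT number 2 or 3 or p110g-/- number 1, 2 or 3 (adjusted p = 0.077 to 0.2, against 0.00022 to 0.2 over all alternatives), and that of Cdk6 without WT number 2 or 3 or p110g-/- number 2 or 3 (adjusted p = 0.17 to 0.21, against 0.0003 to 0.21 over all alternatives). Bcl2l1, the survival gene for Bcl-xL, was the 1 of 20 cell death genes to pass (-0.64 (adjusted p = 0.0025)), and the call held whichever library was left out but not in the fit over the 6 IL-4 libraries alone (adjusted p = 0.056).

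**Figure D3:**
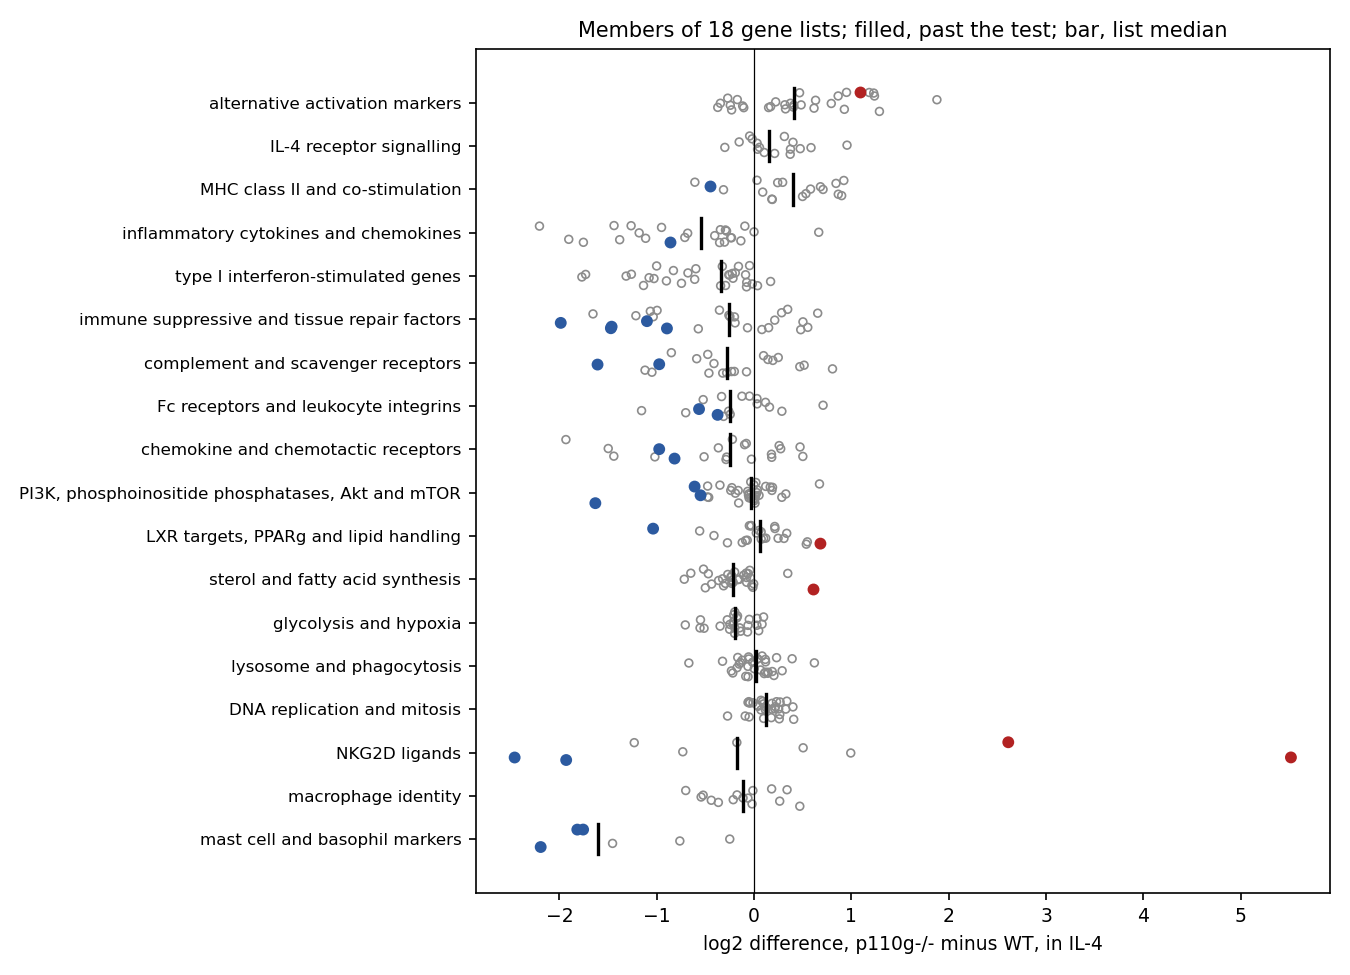
Log2 difference between p110g-/- and WT in IL-4 for the tested members of 18 gene lists (rows); open circles did not pass, red and blue filled circles passed as higher and lower, and black bars are list medians. Medians run from -1.61 for mast cell and basophil markers to 0.41 for alternative activation markers.

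Over all 39 lists, 704 of 740 genes were tested and 43 passed (6.11%), 10 higher and 33 lower, and 15 of the 43 passed whichever library was left out. The share over all tested genes was 3.33%. The lists were chosen with earlier results of these data known, so the gap between these shares is not evidence about the lists. Macrophage identity genes were present at like summed levels: limma called 0 of 15, with 6 at an unadjusted p below 0.05, and edgeR and DESeq2 called 0. With only numbers 2 and 3 in every group, 4 of the 15 passed as higher and 2 as lower, beside 14.6% of all tested genes. Summed signal of the identity genes was 754797 to 889225 in WT and 752188 to 846222 in p110g-/- libraries, and the cells are labelled macrophages. Mast cell and basophil markers were lower. Of 10 such genes 7 were in the table and 6 were tested, 3 fell, none rose, and their summed signal was 275 to 559 in WT and 126 to 157 in p110g-/- libraries. Over all tested genes, 1.99% fell. Mcpt8, a basophil protease, had 123, 80.5 and 73.8 and 18.7, 20.3 and 17.8, -2.19 (SE 0.48, adjusted p = 0.018); Ms4a2, the beta chain of the IgE receptor, had 49.2, 32.3 and 36.3 and 9.3, 11.6 and 10, -1.82 (SE 0.34, adjusted p = 0.0064); Cpa3, a mast cell protease, was at -1.76 (adjusted p = 0.036). The call of Mcpt8 ended without WT number 1, 2 or 3 or p110g-/- number 2 or 3 (adjusted p = 0.052 to 0.083, against 9.1e-07 to 0.1 over all alternatives), and that of Cpa3 without WT number 1, 2 or 3 or p110g-/- number 1, 2 or 3 (adjusted p = 0.058 to 0.11, against 0.0013 to 0.24 over all alternatives). With only IL-4 numbers 2 and 3 kept, Ms4a2 had an adjusted p of 0.061. Fewer cells of a type and less RNA per cell cannot be told apart in such bulk samples.

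Pf4, a platelet chemokine that macrophages also make, fell from 639.8, 747 and 689 to 179, 292 and 249 (-1.55 (SE 0.22, adjusted p = 0.00051)), the 1 of 3 tested erythroid and megakaryocyte markers to pass. Fibroblast and stromal markers were above 0 in 9 of 9 tested members, with a median of 1.07. Over all libraries limma called 0 of them, with 2 at an unadjusted p below 0.05, edgeR called 0 and DESeq2 1. Of the 9, 5 passed as higher and 0 as lower with only numbers 2 and 3 in every group. That fit called 14.6% of all tested genes in either direction. It called 0 of the 9 where only IL-4 was limited to numbers 2 and 3. Summed signal of these markers was 424 to 1460 in WT and 1312 to 2060 in p110g-/- libraries. Neutrophil markers summed to 8257 to 26994 and 13343 to 15221, dendritic cell markers to 1755 to 1831 and 2262 to 2380, B cell markers to 79.6 to 376 and 176 to 364, and T and NK cell markers to 334 to 550 and 322 to 380. Of these 4 lists, 1 neutrophil gene, Csf3r (0.81 (adjusted p = 0.012)), and 1 dendritic cell gene, Cd209a (1.96 (adjusted p = 0.0086)), passed, both higher. The call of Csf3r ended without WT number 2 or 3 or p110g-/- number 2 or 3 (adjusted p = 0.061 to 0.081, against 5.5e-05 to 0.12 over all alternatives), and that of Cd209a without WT number 3 or p110g-/- number 2 (adjusted p = 0.058 to 0.06, against 0.001 to 0.073 over all alternatives). The part of such cells in the other results was not tested.

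Outside the lists, the largest rises were in genes of low signal in WT. Phyhip, whose product binds phytanoyl-CoA hydroxylase, had 0.9, 1.7 and 2.3 in WT, at or below the value of 3 reads, and 123, 97.9 and 129 in p110g-/- libraries, and is given no fold. Hpca, a neuronal calcium sensor, rose from 17.6, 10.8 and 4.7 to 205, 209 and 199.9 (4.26 (SE 0.40, adjusted p = 8.1e-06)), and Hddc3, which encodes a hydrolase of the alarmone ppGpp, from 34.4, 38.2 and 32.8 to 292, 348 and 364 (3.21 (SE 0.18, adjusted p = 1.8e-08)). Among more abundant genes, Cacna1a, a calcium channel subunit, rose from 1275, 1189 and 1200.5 to 5069, 4285 and 4112 (1.87 (SE 0.27, adjusted p = 0.00073)), with every p110g-/- library above 3 times the highest WT library. Tspan33 (2.01 (adjusted p = 0.0033)), Pyroxd2 (2.09 (adjusted p = 3e-06)), Ocel1 (1.43 (adjusted p = 1.2e-06)) and Mettl7a3 (1.94 (adjusted p = 1.6e-06)) rose as well, each in every alternative tried.

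Cyp4f18, a fatty acid hydroxylase that breaks down leukotriene B4, had the largest fall of any gene with a mean of at least 50. Its signal was 1728, 1910.2 and 1825 in WT and 50.2, 46.5 and 34 in p110g-/- libraries, -5.37 (SE 0.26, adjusted p = 5.1e-09). Fam124a fell from 158, 172 and 131 to 30.8, 18.4 and 22.4 (-2.66 (SE 0.46, adjusted p = 0.0035)), and Plekhg1 from 2424, 1768 and 1800.1 to 631, 361 and 443 (-2.08 (SE 0.30, adjusted p = 0.00066)). Gdf15, a stress-induced cytokine of the TGF-beta family, was at -2.58 (adjusted p = 0.0094), and its call ended without p110g-/- number 2 (adjusted p = 0.063, against 1.6e-05 to 0.063 over all alternatives). Erdr1 fell at -2.78 (adjusted p = 0.00012), but is a repeated gene whose read counting is uncertain. Of 316 tested genes with a mean of at least 20000, 10 passed, a listing made after the values were seen. They include Actb, the cytoskeletal beta-actin often used as a reference gene, at 138131, 174416 and 162300 in WT and 88531, 104315 and 93650.5 in p110g-/- libraries (-0.73 (SE 0.10, adjusted p = 0.0006)), lower in every p110g-/- library and in every alternative.

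A stretch of neighbouring genes on chromosome 2 fell together. Of 28 tested genes from Gm14393 to Zfp931 in RefSeq's order, 25 fell and none rose, with log2 differences of -0.69 to -3.27 among the 25 and a median of -1.79 over the 28. These are predicted zinc finger genes, a class of DNA-binding proteins that often silence repeats. The largest falls were Gm14325, from 580.4, 679 and 709.7 to 57.4, 66.9 and 78 (-3.27 (SE 0.11, adjusted p = 5.9e-11)), and Etohi1, from 964, 1062 and 1064 to 124, 122 and 124 (-3.05 (SE 0.10, adjusted p = 2.9e-11)), with no overlap for either. Members with a shared sequence can share reads, and how such reads were counted is not given in the sources used here, so signal of a single member is uncertain and the 25 calls may not be independent. Transcripts were not compared. To show how alike the promoters are, the stretch of 92 bases upstream of the gene start that 17 members share is printed for 5 of them, 5′ to 3′ on the gene's strand, with the letters CCAAT in capitals, from RefSeq's promoter windows of build GRCm38.p6.
Gm14325 (chr2:177840354-177840445, minus strand): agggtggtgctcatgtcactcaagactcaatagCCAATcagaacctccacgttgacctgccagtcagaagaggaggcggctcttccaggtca
Etohi1 (chr2:178023173-178023264, plus strand): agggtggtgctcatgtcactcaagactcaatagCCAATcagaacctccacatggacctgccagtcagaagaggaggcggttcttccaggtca
LOC628147 (chr2:176153449-176153540, minus strand): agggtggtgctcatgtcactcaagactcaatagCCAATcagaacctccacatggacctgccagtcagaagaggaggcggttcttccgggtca
Gm14326 (chr2:177957325-177957416, minus strand): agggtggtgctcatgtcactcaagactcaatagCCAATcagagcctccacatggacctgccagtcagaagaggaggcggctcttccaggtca
Gm14305 (chr2:176708216-176708307, plus strand): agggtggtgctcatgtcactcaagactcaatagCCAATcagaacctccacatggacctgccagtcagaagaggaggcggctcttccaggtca
Between pairs of the 17, identity was 95.65% to 100% with a median of 97.83%. The 17 were taken for holding the same word of 16 bases, given below, on the gene's strand. All 92 bases also had to lie within the 250 bases before the gene start. Part of this identity was therefore fixed by the choice. Promoter windows, 250 bases before to 50 after the gene start, were found for 24 of the 28. CCAAT, searched on both strands, was in 24 of these 24 and in 37.4% of all 32851 windows. The longer word ACTCAATAGCCAATCA, taken from these members and holding that CCAAT, was in 22 of the 24, with 21 of the 23 called, and in 0.0913% of all windows. A member counted if any of its windows held a word, while shares of all windows are per window, so the 2 are unlike measures. The log2 difference was -2.77 for LOC628147, -2.57 for Gm14326 and -2.23 for Gm14305.

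By chromosome, 14799 tested and 491 of the 520 called genes had a place in the RefSeq table. The share past the test, 3.33% over all tested genes, was 7.86% on chromosome 14 (39 of 496, with 20 higher and 19 lower), 7.28% on chromosome 8 (56 of 769) and 5.14% on chromosome 18 (19 of 370). It was 4.58% on chromosome 12 (24 of 524), 4.57% on chromosome 5 (42 of 920) and 4.27% on chromosome 2 (50 of 1170, with 25 from the stretch above). It was 1.06% on chromosome 16 (5 of 470), and 0 of the 6 tested genes on the Y chromosome passed. Other runs with at least 8 called genes among 20 in a row held genes moving both ways. On chromosome 5, 11 of 30 from Ap1s1 to Pilrb2 passed, 5 higher and 6 lower, with the paired immune receptors Pilra (-1.54 (adjusted p = 0.016)), Pilrb1 (-1.87 (adjusted p = 0.0058)) and Pilrb2 (-1.63 (adjusted p = 0.0094)) among the lower. On chromosome 8, 8 of 16 from Lpar2 to Armc6 passed, 4 each way. The calls of Pilra and Pilrb2 ended without WT number 2 or 3 or p110g-/- number 3 (adjusted p = 0.083 to 0.11, against 0.00024 to 0.11 over all alternatives) and without WT number 3 or p110g-/- number 3 (adjusted p = 0.052 to 0.058, against 0.00021 to 0.061 over all alternatives), and these runs were listed after the values were seen.

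**Figure D4:**
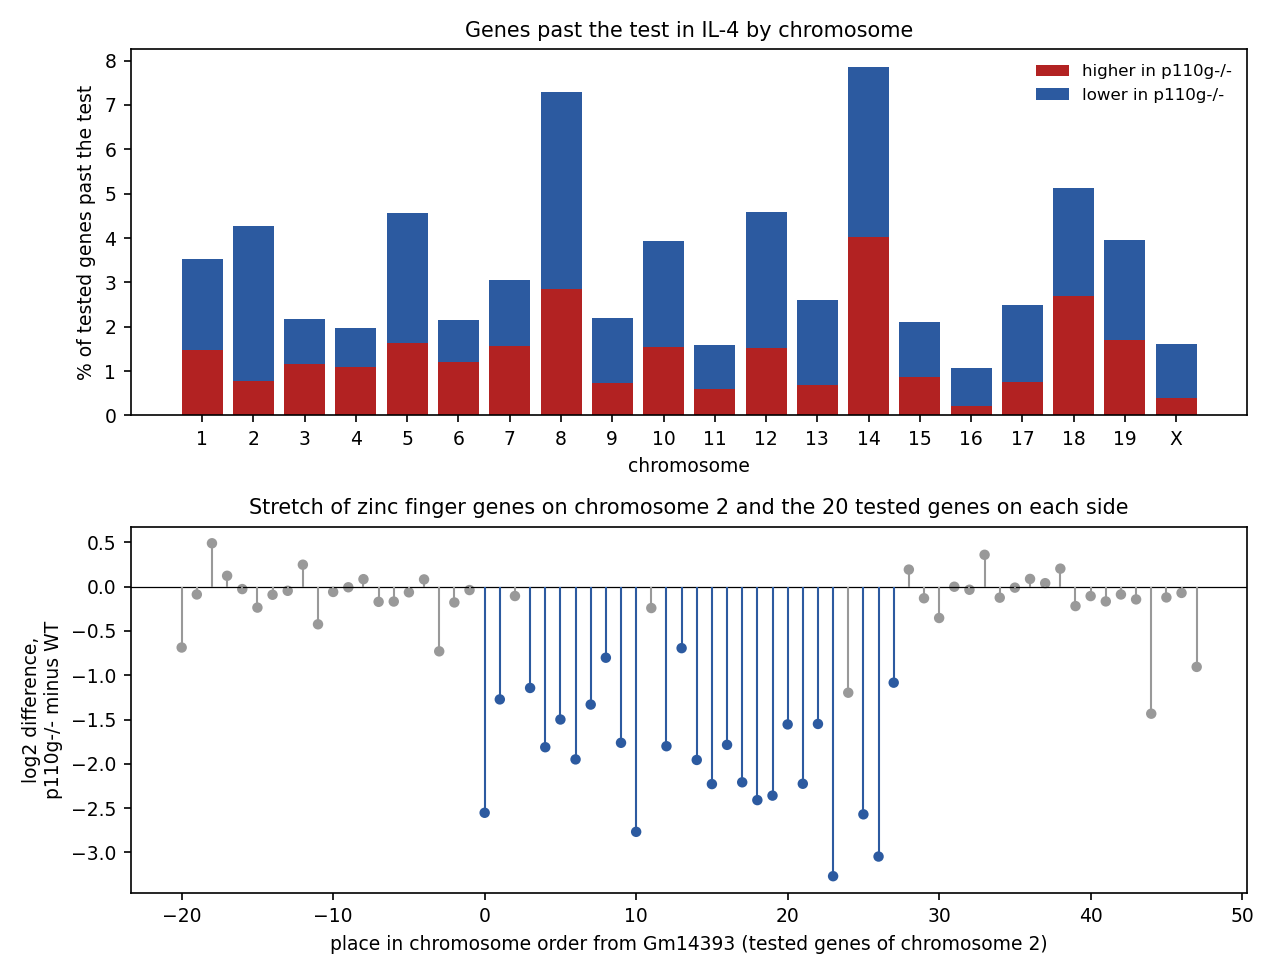
Top, share of tested genes past the test in IL-4 on each chromosome (bars from 0, red higher and blue lower in p110g-/-). Bottom, log2 difference of each tested gene along chromosome 2 from 20 genes before Gm14393 to 20 after Zfp931 in chromosome order; 25 of the 28 genes between them are blue, past the test as lower.

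Genotype effects in M-CSF alone resembled those in IL-4. The 2 comparisons share no library. In M-CSF 365 genes passed (2.34%), 1.06% of tested genes higher and 1.27% lower, and 207 of them passed in IL-4 in the same direction, which is 56.7% of the M-CSF list and 39.8% of the IL-4 list, while 1 passed in the opposite direction. That gene is A930018M24Rik, at 1.77 in IL-4 and -1.47 in M-CSF, and its IL-4 call ended without p110g-/- number 2 (adjusted p = 0.056, against 1.4e-07 to 0.056 over all alternatives). Of the 520 genes, 461 (88.7%) had the same sign in M-CSF, against 60.5% of all tested genes. The log2 differences correlated at Pearson's r = 0.847 over those 520, which were chosen by their IL-4 call, and at 0.501 over all tested genes. Both are descriptions across genes that are not independent. H60a was 5.76 in M-CSF, Cyp4f18 -5.34, Etohi1 -2.77 and Cacna1a 1.64, near their IL-4 differences, and Csf2ra -1.38, nearer to 0 than in IL-4. The difference between the 2 genotype effects, the interaction, passed for 0 genes by limma (0%), with a smallest adjusted p of 0.083 and 1156 genes at an unadjusted p below 0.05; edgeR called 0 and DESeq2 77, and limma called 89 without p110g-/- IL-4 number 1 and 385 with only numbers 2 and 3 in every group. Of 91 genes described here, 0 passed this interaction by limma over all libraries or by edgeR, 12 by DESeq2, 12 by limma without p110g-/- IL-4 number 1 and 21 with only numbers 2 and 3 in every group. Plekhg1, which lay further below WT in M-CSF (-4.53) than in IL-4 (-2.08), Chst11, Pik3cb, Prdx1, Stab1, Hivep3, Naaa and Bcl2l1 were in all of the last 3 sets.

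Some genes past the test in IL-4 did not pass in M-CSF all the same. Chst11, a chondroitin sulfate synthesis enzyme, fell in IL-4 from 2086, 3490.4 and 3449 to 1015, 918 and 827 (-1.67 (SE 0.23, adjusted p = 0.00051)), while its M-CSF libraries held 1614, 3409 and 2221 in WT and 2201, 2809.7 and 2805 in p110g-/- cells, overlapping at 0.17 (adjusted p = 0.87). The interaction of Chst11 had an adjusted p of 0.1 by limma over all libraries. Cd276, an inhibitory surface molecule of the B7 family, fell from 1199.8, 1211 and 1326 to 598, 395 and 318 (-1.56 (SE 0.20, adjusted p = 0.00025)) and was at -0.52 (adjusted p = 0.26) in M-CSF. Naaa, a lipid amide hydrolase, rose from 4840.1, 4725 and 4550.1 to 7463, 9740.4 and 8600.1 (0.86 (SE 0.12, adjusted p = 0.00063)) and was at 0.02 (adjusted p = 0.98) in M-CSF. Slc7a7, a cationic amino acid transporter subunit, rose from 516, 392 and 326 to 839, 1096 and 869.9 (1.20 (SE 0.18, adjusted p = 0.0011)), and Slc39a14, a zinc and iron importer, from 709, 675 and 706 to 1971, 1266 and 1474 (1.15 (SE 0.22, adjusted p = 0.0063)). Cd276, Slc7a7 and Slc39a14 were picked after their values were seen, from the 228 genes that passed in IL-4 and in neither other stimulus. Of those 228, 0 passed the interaction with M-CSF by limma over all libraries, so passing in 1 stimulus only does not show a difference.

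**Figure D5:**
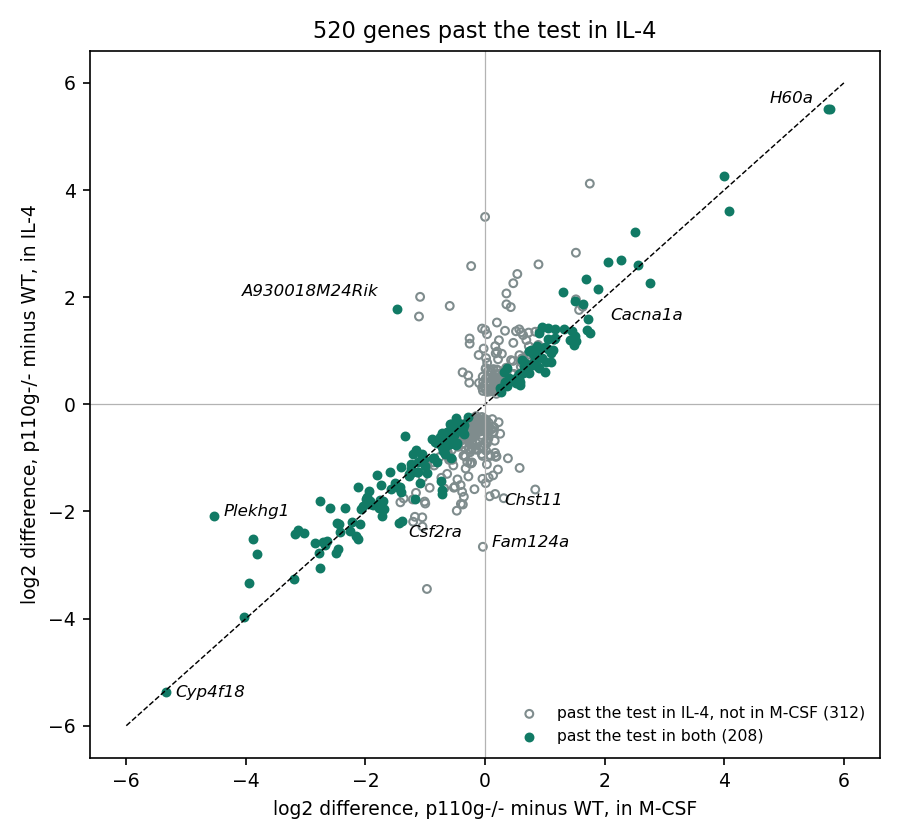
Log2 difference between p110g-/- and WT in IL-4 (vertical) against that in M-CSF (horizontal) for the 520 genes past the test in IL-4; filled points passed in both, open points in IL-4 but not M-CSF, and the dashed line marks equal differences. Most points lie along the line, with Chst11 and Fam124a near 0 in M-CSF.

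In IFNg/LPS the genotype comparison was larger, with 2303 genes past the test (14.7%), 6.94% of tested genes higher and 7.79% lower. Pik3cg stood at 3691 in number 1 of the libraries labelled p110g-/- IFNg/LPS, above all 3 WT libraries of that stimulus (3559.5, 2309 and 2604). That Pik3cg value goes against the label, and whether the library is mislabelled was not tested. Pik3cg did not pass in IFNg/LPS (-0.34 (adjusted p = 0.37)). Of the 520 genes, 211 passed in IFNg/LPS in the same direction (40.6% of the IL-4 list and 9.16% of the IFNg/LPS list) and 22 in the opposite direction. The genotype effect differed between IL-4 and IFNg/LPS for 888 genes by the limma interaction (5.68%), 146 of them among the 520. With only numbers 2 and 3 in every group, which leaves out p110g-/- IFNg/LPS number 1, it differed for 3212. By direction 2.85% of tested genes were more positive and 2.83% more negative in IL-4, so 50.2% of the 888 were more positive, and 61.9% of 992 where each library was centred on its median.

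Among the 22, Csrp1, an actin-bundling LIM protein, was higher in p110g-/- cells in IL-4 (4918, 4055 and 3946 against 7240.3, 6215 and 6379, 0.62 (SE 0.16, adjusted p = 0.042)) and lower in IFNg/LPS (-2.71), with an interaction of 3.33 (SE 0.22, adjusted p = 2e-06), or 3.24 (adjusted p = 7e-10) with numbers 2 and 3 only. The IL-4 call of Csrp1 ended without WT number 2 or 3 or p110g-/- number 1, 2 or 3 (adjusted p = 0.098 to 0.19, against 3.1e-05 to 0.19 over all alternatives). Rgl1, an exchange factor for Ral GTPases, showed 0.52 in IL-4 and -1.64 in IFNg/LPS, an interaction of 2.16 (SE 0.16, adjusted p = 2e-06), or 2.19 (adjusted p = 1.9e-06) with numbers 2 and 3 only; its IL-4 call ended without WT number 2 or 3 or p110g-/- number 2 (adjusted p = 0.055 to 0.098, against 0.0012 to 0.098 over all alternatives). Tnf was lower in IL-4 and higher in IFNg/LPS (0.81 (adjusted p = 0.0072)), an interaction of -1.67 (SE 0.25, adjusted p = 0.0022), or -2.10 (adjusted p = 3.2e-05) with numbers 2 and 3 only. Hivep3, a zinc finger factor picked after its values were seen, did the same at -1.37 and 1.11, with -2.48 (SE 0.29, adjusted p = 0.00029) for the interaction, or -3.08 (adjusted p = 4.2e-06). Naaa went the other way, 0.86 in IL-4 and -0.71 in IFNg/LPS, 1.58 (SE 0.18, adjusted p = 0.00019) for the interaction, or 1.85 (adjusted p = 2.8e-05). In M-CSF, Tnf, Hivep3, Csrp1 and Naaa lay at 0.02, 0.06, 0.05 and 0.02. The 148 genes past the test in the same direction under all 3 stimuli, 46 higher and 102 lower, include H60a, Cyp4f18, Hddc3, Cacna1a, Csf2ra, Raet1d, Pf4, Etohi1 and Gm14325.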

How the data were processed

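Per the labels, total RNA was sequenced. Per the submitters' processing notes CASAVA 1.8.2, Bowtie2 and DESeq were used with build mm9; how reads were counted per gene is not given in the sources used here. As deposited, each signal value is a gene's read count over a factor shared by its library, judged from the values: in every library all of them (100%) lay within 0.1 of a whole multiple of 1 step, which gave back the reads. The 18 libraries held 40.1 to 69.6 M reads (M is 1e6), and a gene at or below the value of 3 reads is given no fold, which covers counting error only.

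Log2(signal + 1) was fitted with limma 3.58.1 (R 4.3.3) as 6 group means over 18 libraries, which leaves 12 residual degrees of freedom. Moderation was robust and followed the mean level. Alternatives were pseudocounts of 0.5 and 5, no filter or a minimum of 50, TMM or median scaling, no trend or robust moderation, a replicate block, edgeR 4.0.16 and DESeq2 1.42.0 on recovered reads, each IL-4 library left out, the 6 IL-4 libraries alone with and without the block, IL-4 numbers 2 and 3 only and, chosen after seeing the data, numbers 2 and 3 in every group. The fits were tested on simulated data.

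Named genes are a fixed list of 30, the 15 largest differences and 5 smallest adjusted p per direction without overlap and with a mean of at least 50, up to 4 members per list with the smallest p, the 5 smallest adjusted p per direction of each interaction and 10 neighbours of Pik3cg per side, plus those said to be picked later; a gene that the rule names is not reported here. Members and the 39 lists were chosen with earlier results of these data known, so no list is independent evidence. Gene order and promoters came from RefSeq (GRCm38.p6), not the mm9 of the files, so no gene coordinates other than those of printed promoters are given.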

Additional observations from a re-analysis of the deposited data

Results flagged for a closer look

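The genotype effect of these genes differed between IL-4 and IFNg/LPS by a test of the difference itself, the limma interaction, which called 888 genes in all. Values are the log2 difference in IL-4 minus that in IFNg/LPS, so a positive value means that p110g-/- cells were relatively higher in IL-4. Time also differed (48 h against 24 h), and cannot be told apart from the agent. The library labelled p110g-/- IFNg/LPS number 1 goes against its label for Pik3cg. With only numbers 2 and 3 in every group, which leaves that library out, 30 of the 31 genes kept their direction and passed, and Arg1 did not pass (2.29, adjusted p = 0.079).

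Fitted effects were above 0 in IL-4 and below 0 in IFNg/LPS, each effect passing its own test or not, for Csrp1 3.33 (adjusted p = 2e-06), Rgl1 2.16 (adjusted p = 2e-06), Naaa 1.58 (adjusted p = 0.00019), Csf3r 1.54 (adjusted p = 0.0023), Slc7a7 1.61 (adjusted p = 0.003), Nr1h3 1.14 (adjusted p = 0.0033), Slc39a14 1.54 (adjusted p = 0.01), Il4ra 1.13 (adjusted p = 0.017), Pdcd1lg2 1.67 (adjusted p = 0.021) and Mrc1 1.30 (adjusted p = 0.023). They were below 0 in IL-4 and above 0 in IFNg/LPS for Hivep3 -2.48 (adjusted p = 0.00029), Tnf -1.67 (adjusted p = 0.0022), Chst11 -1.80 (adjusted p = 0.0076), Pdgfb -1.45 (adjusted p = 0.018), Il1b -3.44 (adjusted p = 0.024), Pik3cb -0.59 (adjusted p = 0.026), Icam1 -0.95 (adjusted p = 0.026) and Cdkn1a -0.85 (adjusted p = 0.037). Both effects were above 0 for H60a 1.24 (adjusted p = 0.00019), Stard4 -1.69 (adjusted p = 0.00059) and Mettl7a3 1.07 (adjusted p = 0.013). Both were below 0 for Cysltr2 4.06 (adjusted p = 9.2e-05), Stab1 -1.42 (adjusted p = 0.0012), Cyp4f18 -2.36 (adjusted p = 0.0027), Gm14325 -1.01 (adjusted p = 0.003), Plekhg1 2.60 (adjusted p = 0.0037), Csf2ra -1.10 (adjusted p = 0.0093), Cd276 -1.17 (adjusted p = 0.028), Pik3cg -1.29 (adjusted p = 0.035), Arg1 2.36 (adjusted p = 0.042) and Prdx1 -0.96 (adjusted p = 0.043), where Cysltr2, Plekhg1 and Arg1 fell more in IFNg/LPS in the fit and the genes of negative value more in IL-4.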

How the results depend on the processing

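The count of 520 genes called for the genotype effect in IL-4 became 921 with DESeq2, 2285 with only numbers 2 and 3 in every group, and 239 to 727 with 1 IL-4 library left out. For the difference between IL-4 and M-CSF, limma called 0 genes, 7 with a pseudocount of 5, 2 with no trend or robust moderation, 77 with DESeq2, 63 with only IL-4 numbers 2 and 3, 385 with only numbers 2 and 3 in every group, and 0 to 89 with 1 library left out. For the difference between IL-4 and IFNg/LPS, the 888 genes became 1530 with DESeq2, 3212 with only numbers 2 and 3 in every group, and 349 to 1013 with 1 library left out. The M-CSF genotype effect (365 genes) gave 673 with DESeq2 and 688 with only numbers 2 and 3 in every group, and the IFNg/LPS effect (2303 genes) gave 4166 with the latter. Members of the gene lists past the test numbered 43, 75 with DESeq2, 205 with only numbers 2 and 3 in every group, and 18 to 63 with 1 library left out. The cause of these changes was not tested.

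Same-numbered IL-4 libraries of the 2 genotypes deviated together with correlations of 0.43, 0.30 and 0.05 over genes. Between number 1 of either genotype and numbers 2 and 3 of the other, correlations were -0.40 to -0.12. WT number 3 with p110g-/- number 2 gave 0.26, and p110g-/- number 3 correlated best with WT number 2 (0.12). What a number marks is not given, and these values do not settle it. The main fit did not pair the samples by number. With the replicate block, 763 genes passed in IL-4 (991 in the 6 IL-4 libraries only), 8 and 1380 for the differences from M-CSF and IFNg/LPS, 555 for the M-CSF effect, and 70 list members (120 in the 6 IL-4 libraries only). No log2 difference in IL-4, or interaction with IFNg/LPS, that is printed here for a single gene changed sign under any alternative run; genes that are not printed were not counted. Over 122 results for single genes and their alternatives, 2119 values stayed on their side of the threshold, 31 newly passed and 225 no longer passed. Depth limits genes near the value of 3 reads.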
